A study of Mus musculus with 32 samples.

Results

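MET, AXL and KIT are receptor tyrosine kinases of 3 different families, and the 9 genes described here are these receptors, the AXL relatives Tyro3 and Mertk, and their ligands Hgf, Gas6, Pros1 and Kitl. They were picked by gene symbol, with earlier results of these data known, and each was read by 1 probe set, so that 9 of the 18328 probe sets on the arrays were followed. The series profiled malignant gliomas of mice with loss of the tumour suppressor p53, alone or with a mutation of Nf1, whose product neurofibromin inactivates RAS. It held 32 arrays of bulk tissue RNA in 6 groups, labelled as a set Z1 and a set Z2. Set Z1 held 9 gliomas of genotype hGFAP-cre;p53KO/+;Nf1+/flox, the conditional cis model and here called cis p53/Nf1 gliomas, and 3 normal forebrains. Set Z2 held 9 gliomas of genotype hGFAP-cre;p53flox/flox, called p53 gliomas, 4 gliomas of genotype hGFAP-cre;p53flox/flox;Nf1KO/+, called p53 Nf1KO gliomas, 4 normal forebrains and 3 normal cerebella, numbered 1, 2 and 4. Cre was driven by the human GFAP promoter, which is active in radial glia and neural progenitors. The normal brains are labelled wild-type, no age is given for any group, and each tumour is tissue that can hold normal cells. The labels do not say whether the arrays of a group come from separate mice, so the p-values below measure the spread between these arrays, which may in part be technical.

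MET is the receptor of hepatocyte growth factor, HGF, a ligand secreted as an inactive precursor that proteases cut into its active form. AXL, TYRO3 and MERTK form the TAM family, known for the clearance of dying cells and for damping innate immune signalling. Its ligands are the vitamin K-dependent proteins GAS6 and protein S, the product of Pros1, which act when bound to phosphatidylserine on such cells. GAS6 activates each TAM receptor, and protein S is known as a ligand of TYRO3 and MERTK but not of AXL. In normal brain TYRO3 is known as the TAM receptor of neurons, and AXL and MERTK as those of microglia, with MERTK also on astrocytes. KIT is the receptor of stem cell factor, encoded by Kitl, and is known from mast cells, melanocytes and blood progenitors, and in the cerebellum from interneurons.

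The promoters of the pair of genes that was higher in gliomas, Axl and Pros1, and of Tyro3 and Kitl, the pair with the highest correlation over all 22 gliomas though not without cis p53/Nf1 glioma 8, are shown so that the letters around their gene starts can be compared. They are RefSeq windows of assembly GRCm38.p6, from 250 bases before to 50 bases after the gene start, written 5′ to 3′ on the gene's strand. Capitals mark matches to the motifs described after them.
Axl promoter (chr7:25788684-25788983, minus strand): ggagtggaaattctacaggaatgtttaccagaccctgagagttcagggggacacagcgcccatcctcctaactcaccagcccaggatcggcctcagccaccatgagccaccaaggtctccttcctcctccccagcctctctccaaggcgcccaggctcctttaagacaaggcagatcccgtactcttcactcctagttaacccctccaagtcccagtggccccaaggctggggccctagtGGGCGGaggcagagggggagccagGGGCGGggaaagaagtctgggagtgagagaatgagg
Pros1 promoter (chr16:62854057-62854356, plus strand): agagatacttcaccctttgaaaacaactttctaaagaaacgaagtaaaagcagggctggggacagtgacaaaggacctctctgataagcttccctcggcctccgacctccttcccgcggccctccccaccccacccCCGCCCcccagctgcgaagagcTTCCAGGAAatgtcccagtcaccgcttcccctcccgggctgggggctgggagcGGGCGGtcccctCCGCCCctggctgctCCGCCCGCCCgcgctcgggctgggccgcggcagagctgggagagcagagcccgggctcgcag
Tyro3 promoter (chr2:119799264-119799563, plus strand): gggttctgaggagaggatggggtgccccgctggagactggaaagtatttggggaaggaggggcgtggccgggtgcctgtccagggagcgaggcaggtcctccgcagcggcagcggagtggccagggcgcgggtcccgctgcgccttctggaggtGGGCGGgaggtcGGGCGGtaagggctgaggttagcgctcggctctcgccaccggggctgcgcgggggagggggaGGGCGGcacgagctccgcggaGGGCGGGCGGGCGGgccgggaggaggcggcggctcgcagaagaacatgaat
Kitl promoter (chr10:100015571-100015870, plus strand): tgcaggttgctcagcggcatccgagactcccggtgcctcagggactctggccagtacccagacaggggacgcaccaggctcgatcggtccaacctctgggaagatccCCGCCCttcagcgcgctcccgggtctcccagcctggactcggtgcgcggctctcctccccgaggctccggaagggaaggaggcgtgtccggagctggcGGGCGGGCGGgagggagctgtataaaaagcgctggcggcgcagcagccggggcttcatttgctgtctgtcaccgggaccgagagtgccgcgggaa

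Both strands of these windows were searched for the core of the interferon-stimulated response element, the AP-1 site TGANTCA, the GC box GGGCGG, the E-box CACGTG and the STAT site TTCNNNGAA. The GC box was found in all 4 promoters and in 35.7% of the 32851 promoter windows of the same length. Axl held 2, Pros1 5, Kitl 3 and Tyro3 6 GC boxes, some of which overlap in the last 3 of these genes. The only other match in the 4 windows was 1 STAT site in Pros1, whose first base lies at position -92 from the gene start, and 8.3% of all windows hold such a match. These are matches of letters, not sites shown to be used.

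The deposited values are normalized log2 levels, and Z1 and Z2 lie on different scales, with array medians of 8.48 to 8.57 and 6.90 to 7.06. Levels are therefore compared only within a set, and each glioma model with forebrain of its own set. A difference was called when the Benjamini-Hochberg adjusted p from limma, over all 18328 probe sets, was under 0.05. Nf1 was lower in p53 Nf1KO gliomas, which carry the Nf1KO allele (5.55 ± 0.20, SD, n = 4), than in p53 gliomas (6.33 ± 0.35, SD, n = 9; limma adjusted p = 0.0348), and Trp53 was lower in p53 Nf1KO gliomas than in forebrain (5.30 ± 0.20, n = 4, against 6.07 ± 0.36, n = 4; adjusted p = 0.0310). In the cis p53/Nf1 and p53 gliomas neither gene differed from forebrain beyond the test, and a probe set outside the deleted part does not check the deletion. Over all probe sets, 3 arrays lay between their group and forebrain: p53 glioma 1, p53 Nf1KO glioma 2 and cerebellum 2 showed 13.4%, 44.8% and 37.1% of the mean difference from forebrain of the other arrays of their groups, against 75.2% to 140.7% for the others. Markers of mature neurons, proliferation and other cell types differed widely between gliomas and forebrain, and their levels are given with the results they accompany.

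Of the 9 genes, Axl and Pros1 were higher and Tyro3, Mertk and Gas6 lower in cis p53/Nf1 gliomas than in Z1 forebrain. In p53 gliomas Axl and Pros1 were again higher than in Z2 forebrain, and Gas6, Kit and Kitl were lower. In p53 Nf1KO gliomas 1 of the 9, Pros1, was called, and it was higher. Thus 5 of 9 members were called in cis p53/Nf1 gliomas, where 41.9% of all probe sets were called (21.8% higher and 20.1% lower), 5 of 9 in p53 gliomas, where 38.1% were (17.5% higher and 20.6% lower), and 1 of 9 in p53 Nf1KO gliomas, where 8.38% were (5.18% higher and 3.2% lower). These shares are near or a little above those of all probe sets, so the counts alone do not set the 9 genes apart. The median log2 difference of the 9 genes was -0.29, -0.54 and -0.34 in the 3 models in this order, against 0.003, -0.04 and -0.07 over all probe sets. Comparisons of p53 and p53 Nf1KO gliomas with forebrain share the 4 Z2 forebrains.

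**Figure D1:**
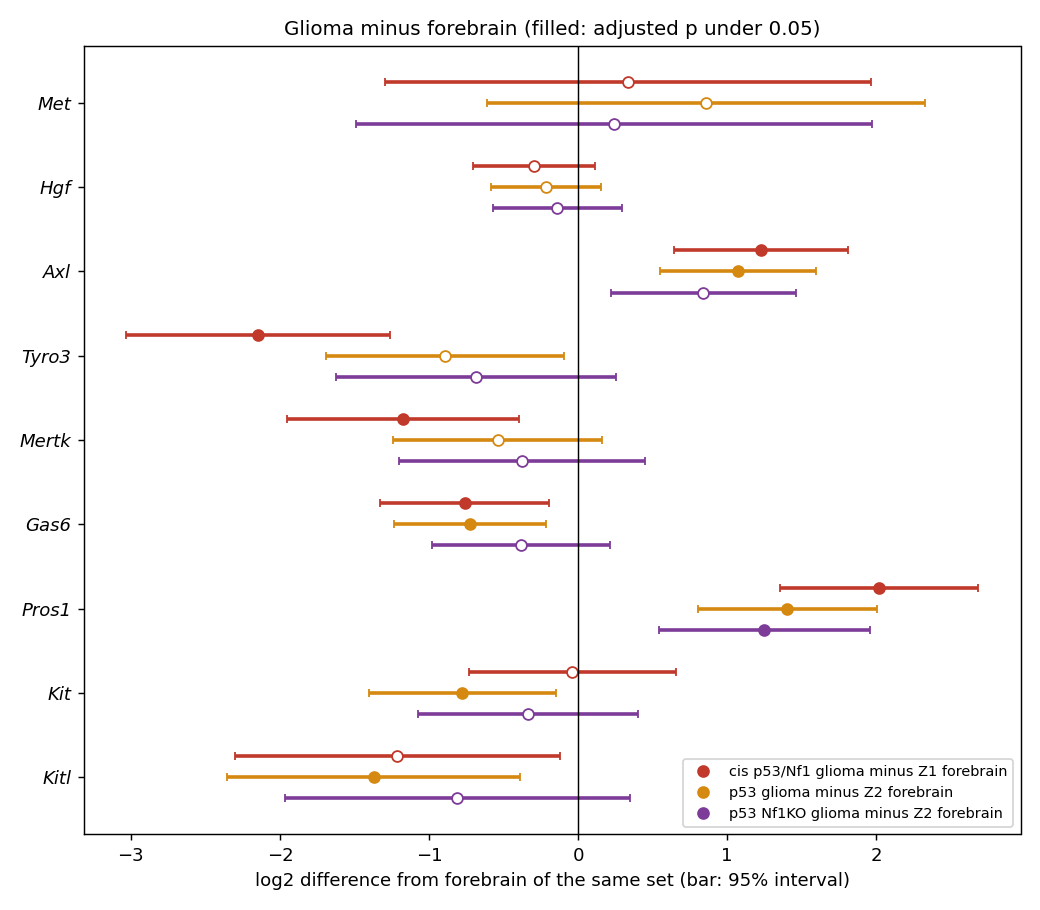
Log2 difference of each gene from forebrain of the same set in the 3 glioma models, with the 95% interval of the limma fit; filled points have an adjusted p under 0.05. Axl and Pros1 lie to the right of 0 in all 3 models, with Axl not called in p53 Nf1KO gliomas, and Tyro3 in cis p53/Nf1 gliomas lies farthest to the left, at -2.14.

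Axl, the TAM receptor with the highest affinity for GAS6, was the receptor of the 9 that rose. In Z1 forebrain its log2 level was 9.25, 9.30 and 9.54, and in the 9 cis p53/Nf1 gliomas it ran from 9.80 through a median of 10.53 to 11.49. Every cis p53/Nf1 glioma thus lay above every Z1 forebrain, and 6 of the 9 lay at least 2-fold above the forebrain mean. The difference was 1.23 ± 0.29 (log2, SE; 2.34-fold; limma adjusted p = 0.000885). In Z2 forebrain Axl read 8.46, 8.25, 8.44 and 8.35, and in p53 gliomas from 8.47 through a median of 9.51 to 9.95, a difference of 1.07 ± 0.26 (2.10-fold; adjusted p = 0.00205). The lowest p53 glioma, number 1, lay just above the highest forebrain, and the next lowest read 9.25. In the 4 p53 Nf1KO gliomas Axl read 9.16, 8.97, 9.86 and 8.86, all above the 4 forebrains, but the difference of 0.84 ± 0.30 did not pass (adjusted p = 0.0764). The cerebella read 8.72, 8.74 and 8.53, slightly above forebrain without overlap and below all gliomas of set Z2 except p53 glioma 1. In set Z2 the order of mean levels was therefore forebrain, cerebellum, p53 Nf1KO glioma and p53 glioma, and the last 2 overlapped.

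Tyro3, the neuronal TAM receptor, showed the largest fall of the 9 in cis p53/Nf1 gliomas. It read 10.63, 10.86 and 10.47 in Z1 forebrain and from 7.80 through a median of 8.21 to 10.42 in cis p53/Nf1 gliomas, with all gliomas below all forebrains. The difference was -2.14 ± 0.43 (4.42-fold lower; limma adjusted p = 0.000202). The highest glioma, number 8, lay just under the lowest forebrain, and the next highest read 8.81. In set Z2, forebrain read 7.20, 8.47, 7.07 and 8.08 and p53 gliomas from 6.04 through 6.60 to 8.08, so that the groups overlapped and forebrain itself spread over 1.40. The p53 glioma difference of -0.89 ± 0.39 missed the threshold (adjusted p = 0.0706) and passed it without p53 glioma 1 (-1.05, adjusted p = 0.0230) or without forebrain 3 (-1.11, adjusted p = 0.0499). The p53 Nf1KO gliomas read 7.69, 7.66, 6.05 and 6.68, which was not called (-0.69 ± 0.46, adjusted p = 0.349), and the cerebella 8.02, 7.24 and 8.01, within the range of forebrain.

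Mertk, the TAM receptor best known for engulfment of dead cells, fell in cis p53/Nf1 gliomas. Z1 forebrain read 10.19, 10.20 and 10.01, and the cis p53/Nf1 gliomas ran from 7.93 through 9.0 to 10.23. The groups overlapped through glioma 8, at the forebrain level, while 7 of 9 gliomas lay at least 2-fold below the forebrain mean. The difference was -1.18 ± 0.38 (2.26-fold lower; limma adjusted p = 0.0134), and it missed the threshold without forebrain 1 (adjusted p = 0.0510) or forebrain 2 (0.0518). In set Z2 Mertk read 9.19, 9.43, 9.19 and 9.79 in forebrain, from 7.40 through 8.73 to 9.66 in p53 gliomas, and 9.47, 9.34, 8.90 and 8.37 in the p53 Nf1KO model. The lowest of these values belonged to p53 glioma 8, and neither difference was called (-0.54 ± 0.34, adjusted p = 0.222, and -0.38 ± 0.40, adjusted p = 0.573). The cerebella read 9.30, 8.71 and 8.85.

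The TAM ligands went in opposite directions. Pros1, which encodes protein S, also an anticoagulant cofactor in plasma, read 7.24, 8.02 and 7.96 in Z1 forebrain and from 8.51 through 9.75 to 10.60 in cis p53/Nf1 gliomas. All gliomas exceeded all forebrains, and the difference of 2.02 ± 0.32 (4.05-fold; limma adjusted p = 1.38e-05) was the largest rise among the 9 genes in any model. In set Z2 forebrain read 10.01, 9.61, 10.12 and 9.71 and p53 gliomas from 9.97 through 11.21 to 12.22 (difference 1.40 ± 0.29, 2.64-fold; adjusted p = 0.000663). p53 glioma 1 lay within the forebrain range, and the other 8 p53 gliomas lay at 11.13 or above. The p53 Nf1KO gliomas read 11.16, 10.84, 11.37 and 11.08, all above forebrain, with a difference of 1.25 ± 0.34 (2.38-fold; adjusted p = 0.0245). That call was lost, at adjusted p of 0.0582 to 0.0704, without forebrain 2 or 4 or without p53 Nf1KO glioma 1, 3 or 4, although the difference stayed between 1.16 and 1.34. The cerebella, at 9.67, 9.94 and 9.55, lay within the forebrain range, so that in set Z2 the gliomas of both models stood above both normal regions apart from p53 glioma 1.

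Gas6, the ligand shared by all 3 TAM receptors, was lower in gliomas. Z1 forebrain read 11.13, 10.88 and 11.49 and cis p53/Nf1 gliomas from 9.76 through 10.20 to 11.31, which overlapped through glioma 6. The difference was -0.76 ± 0.28 (1.69-fold lower; limma adjusted p = 0.0270), and it was not called without forebrain 1 (adjusted p = 0.0675) or forebrain 3 (-0.60, adjusted p = 0.161). Z2 forebrain read 9.34, 9.07, 9.92 and 9.35 and p53 gliomas from 8.24 through 8.58 to 9.24, all 9 below the forebrain mean (-0.72 ± 0.25, 1.65-fold lower; adjusted p = 0.0229). Without forebrain 3, the highest, this fell short (-0.56, adjusted p = 0.117). With the replicate numbers added to the limma fit as a block, Gas6 was called in neither model (adjusted p = 0.143 and 0.0907). The p53 Nf1KO gliomas read 9.29, 9.41, 9.10 and 8.36 and were not called (-0.38 ± 0.29, adjusted p = 0.417). The cerebella read 10, 10.24 and 10.15, above all forebrains and all gliomas of set Z2.

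**Figure D2:**
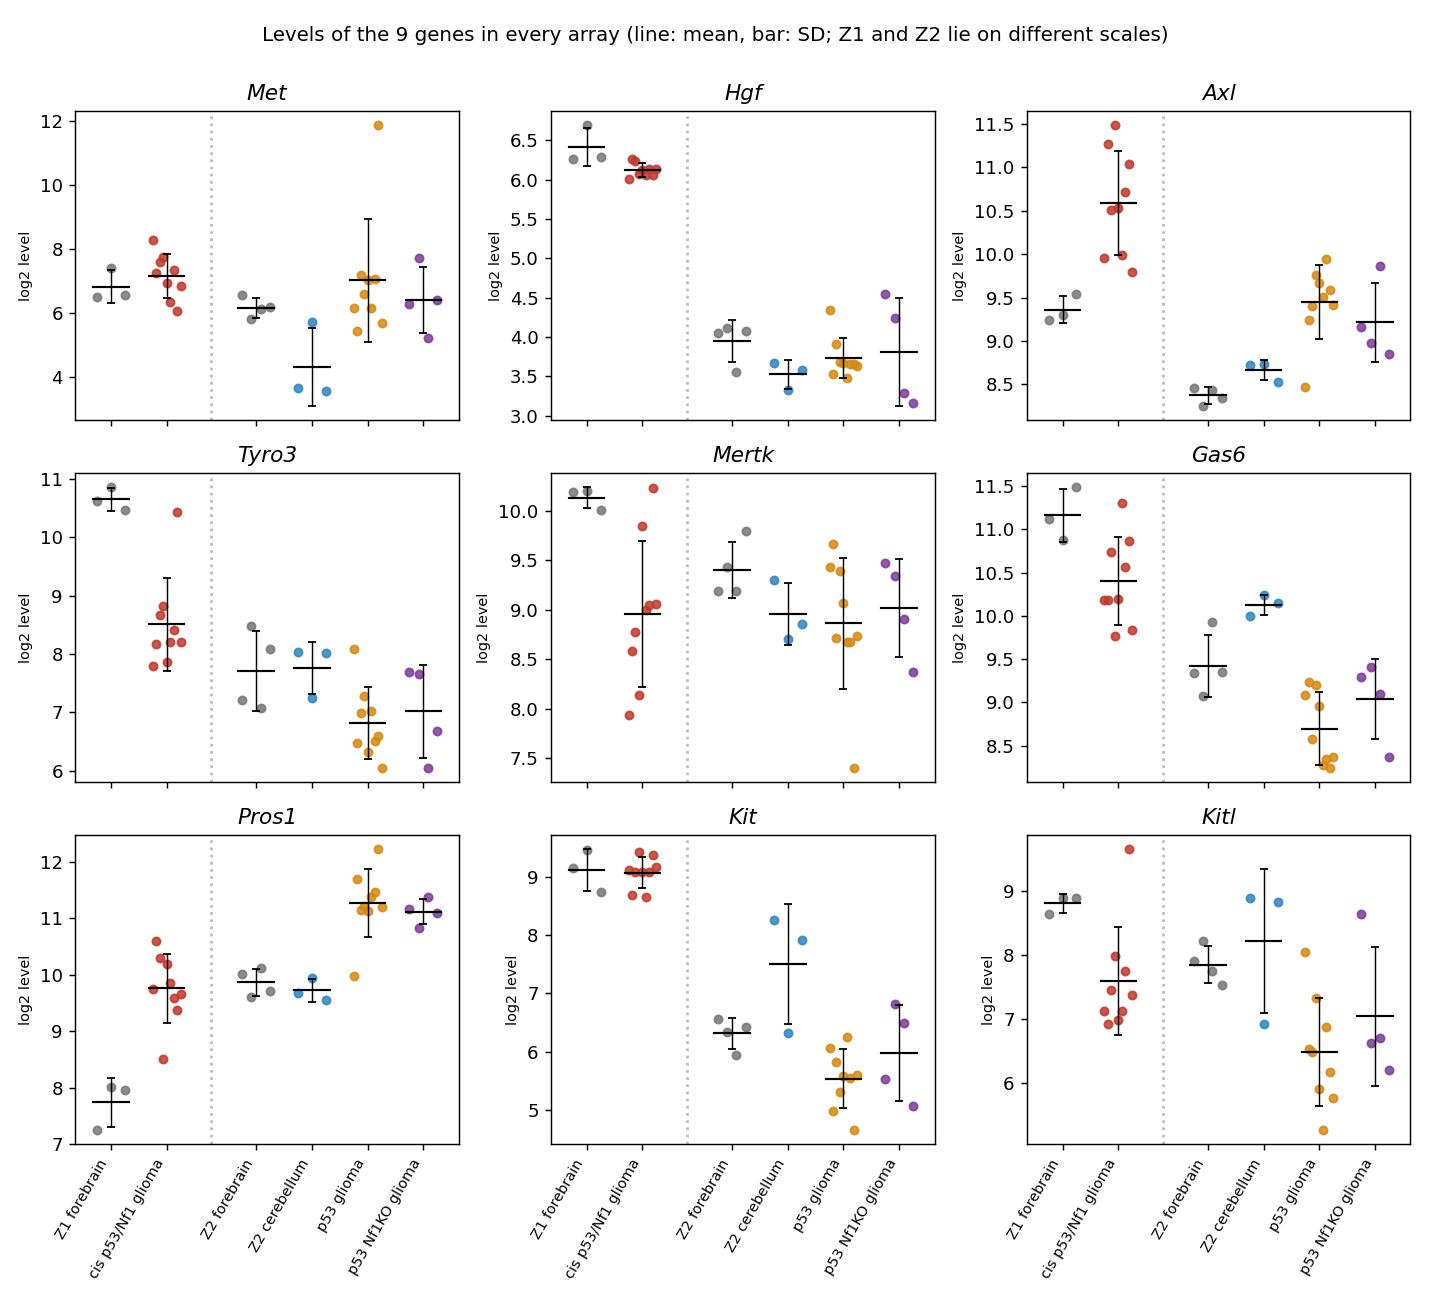
Log2 level of each gene in every array, by group; the horizontal line is the group mean and the bar its SD, and the dotted line parts set Z1 from set Z2, whose scales differ. Single arrays stand out for Met in p53 gliomas (11.88), and for Tyro3 (10.42) and Kitl (9.66) in cis p53/Nf1 gliomas.

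Arrays of bulk tissue cannot tell fewer cells of a type from less RNA per cell, and the levels of cell type markers moved with these genes. The summed level of a marker list is given as the mean log2 level of its measured genes. Over all probe sets, 21.8%, 17.5% and 5.18% were called higher in cis p53/Nf1, p53 and p53 Nf1KO gliomas. The shares called lower were 20.1%, 20.6% and 3.2%. Of 14 mature neuron markers, 14 fell in cis p53/Nf1 gliomas, 11 in those with p53 loss alone and 1 in p53 Nf1KO gliomas, and the list read 12.37 to 12.54 in Z1 forebrain, 7.24 to 9.33 in cis p53/Nf1 gliomas, 10.47 to 10.82 in Z2 forebrain, 6.12 to 10.68 in p53 gliomas and 9.07 to 10.31 in p53 Nf1KO gliomas. Of 24 microglia and macrophage markers, 10, 14 and 6 rose in the 3 models in this order and 2 fell, both in cis p53/Nf1 gliomas, with list levels of 9.32 to 10.55 against 9.13 to 9.53 in Z1 forebrain, and of 8.43 to 9.74 and 8.75 to 9.25 against 7.99 to 8.19 in Z2 forebrain. Of 10 measured astrocyte markers, 8, 2 and 0 fell in the 3 models. Of 15 measured interferon response genes, 14, 15 and 14 rose, from 6.74 to 6.86 in Z1 forebrain to 8.02 to 11.26 in cis p53/Nf1 gliomas, and from 5.74 to 6.02 in Z2 forebrain to 7.14 to 10.02 in p53 gliomas and 8.08 to 9.01 in p53 Nf1KO gliomas. Of 11 measured oligodendrocyte progenitor markers, 10, 11 and 9 rose. The part of these shifts in the levels of Axl, Tyro3, Mertk, Gas6 and Pros1 was not tested.

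Kit, the stem cell factor receptor, differed from forebrain only in p53 gliomas among the 3 models, and there near the threshold. It read 9.15, 9.45 and 8.73 in Z1 forebrain and from 8.65 through 9.08 to 9.42 in cis p53/Nf1 gliomas, the same range (difference -0.04 ± 0.34, 95% interval -0.73 to 0.66; limma adjusted p = 0.948). In set Z2 forebrain read 6.56, 6.33, 5.94 and 6.43 and p53 gliomas from 4.66 through 5.59 to 6.26. All 9 p53 gliomas lay below the forebrain mean and 3 of them at least 2-fold below it, with a difference of -0.78 ± 0.31 (1.71-fold lower; adjusted p = 0.0450). The call held in 4 of the 13 fits that left out 1 of the 13 compared arrays (p53 gliomas 1, 3 and 6 and forebrain 3), and in the other 9 the adjusted p ran from 0.0513 to 0.122. With the replicate numbers as a block the call was lost too (adjusted p = 0.131). The p53 Nf1KO gliomas read 5.53, 6.82, 6.5 and 5.07, on both sides of the forebrain, and were not called (-0.34 ± 0.36, adjusted p = 0.576). The cerebella read 8.26, 6.33 and 7.92. Cerebellum 2 thus read as forebrain does, and the other 2 lay well above all other arrays of set Z2.

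None of 8 measured mast cell markers was called in any model, and their list level was 6.49 to 6.81 in cis p53/Nf1 gliomas against 6.66 to 6.88 in Z1 forebrain, and 3.58 to 4.03 in p53 gliomas and 3.53 to 5.47 in p53 Nf1KO gliomas against 3.83 to 4.25 in Z2 forebrain. Of 7 melanocyte markers, 1, 2 and 0 rose in the 3 models in this order. The shares of all probe sets called higher were 21.8%, 17.5% and 5.18%. The melanocyte list level was 6.81 to 7.62 in cis p53/Nf1 gliomas against 6.67 to 6.86 in Z1 forebrain. In set Z2 it was 4.18 to 5.42 in p53 gliomas and 3.96 to 5.31 in p53 Nf1KO gliomas, against 3.67 to 5.0 in forebrain. Arrays have no true 0, so no marker can be said to be absent. The part of these cells in the Kit level was not tested.

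Kitl, which encodes stem cell factor, fell in p53 gliomas. Z2 forebrain read 7.90, 8.22, 7.75 and 7.53 and p53 gliomas from 5.25 through 6.47 to 8.04, with p53 glioma 1 within the forebrain range and the other 8 below it. The difference was -1.37 ± 0.48 (2.59-fold lower; limma adjusted p = 0.0252), and it missed the threshold without forebrain 1 (adjusted p = 0.0566) or forebrain 2 (0.0783). With the replicate numbers as a block this difference also missed the threshold (adjusted p = 0.0731). In set Z1 forebrain read 8.64, 8.90 and 8.89 and cis p53/Nf1 gliomas from 6.92 through 7.37 to 9.66. Here 8 of 9 gliomas lay below all forebrains and glioma 8 above all of them. The difference of -1.21 ± 0.53 was not called (adjusted p = 0.0684), and without glioma 8 it was -1.47 (adjusted p = 0.0128). The p53 Nf1KO gliomas read 8.64, 6.61, 6.71 and 6.20, with glioma 1 above all forebrains and the other 3 below them (-0.81 ± 0.56, adjusted p = 0.369). The cerebella read 8.90, 6.92 and 8.84, with cerebellum 2 again apart from the others.

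Met did not differ from forebrain beyond the test in any model, but 1 glioma stood far above all other arrays. In p53 gliomas 1 to 9 its level was 6.14, 5.44, 7.19, 6.60, 7.02, 6.15, 7.06, 11.88 and 5.69. p53 glioma 8 lay 5.47 above the mean of the other 8 p53 gliomas, which is 44.4-fold, and the other 8 (6.41 ± 0.66, SD) spread around the forebrain values of 6.57, 5.80, 6.11 and 6.17. Among all 18328 probe sets this excess of p53 glioma 8 over the other p53 gliomas was the largest. In all, 3.39% of probe sets were highest in p53 glioma 8 and at least 2-fold above the mean of the other 8. The p53 glioma difference was 0.86 ± 0.72 (limma adjusted p = 0.366) with p53 glioma 8 and 0.25 (adjusted p = 0.694) without it. In set Z1 Met read 6.49, 7.41 and 6.56 in forebrain and from 6.07 through 7.24 to 8.27 in cis p53/Nf1 gliomas (0.34 ± 0.80, 95% interval -1.29 to 1.97; adjusted p = 0.785). Met lay below the 25th percentile of the array in 2 of 3 Z1 forebrains and 3 of 9 cis p53/Nf1 gliomas. Differences are compressed there. The p53 Nf1KO gliomas read 6.27, 7.71, 5.22 and 6.42 (0.24 ± 0.84, adjusted p = 0.883), and the cerebella 3.66, 5.73 and 3.55, below all forebrains of set Z2. The wide intervals include the spread that p53 glioma 8 adds, because all 6 groups share 1 estimate of the spread.

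The genes that follow Met on chromosome 6 were high in the same glioma. Of the 5 measured protein-coding neighbours on each side, the 5 on the side of increasing coordinates were all highest in p53 glioma 8 among the 9 p53 gliomas. Capza2, a subunit of the actin capping protein, read 12.32 there against 10.24 to 10.52 in the other 8, and St7 11.74 against 6.49 to 7.83. The ligand gene Wnt2 read 5.48 against 3.25 to 4.67. Asz1, known from germ cells, read 6.09 against 2.67 to 3.04, and Cftr, the epithelial chloride channel, 6.56 against 2.52 to 2.89. These are excesses of 1.98, 4.61, 1.61, 3.21 and 3.87 on the log2 scale over the mean of the other 8. Asz1 and Cftr lay below the 25th percentile of the array (4.37 to 4.57) in those 8 gliomas, and Wnt2 in 7 of them, where differences are compressed, so their excesses are not exact sizes. The next gene, Cttnbp2, named after its values were seen, read 11.06 against 8.10 to 9.61 (excess 2.29). Its neighbour Lsm8, with a start 1385 kb from that of Met, read 9.56, within the range of the others (9.30 to 10.41). On the other side Cav1, whose start lies at -157 kb from that of Met, read 10.24 within 8.59 to 11.32, and Cav2, Tes, Tfec and Mdfic were likewise not highest in p53 glioma 8. The run of genes high in p53 glioma 8 thus spanned Met and the 6 next measured genes, with starts 0 to 903 kb from that of Met in the reference order of GRCm38.p6. Copy number was not measured in the files used here. In no other glioma did the median of Met's 10 neighbours exceed the mean of the other gliomas of its model by more than 0.41, against 1.04 in p53 glioma 8.

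**Figure D3:**
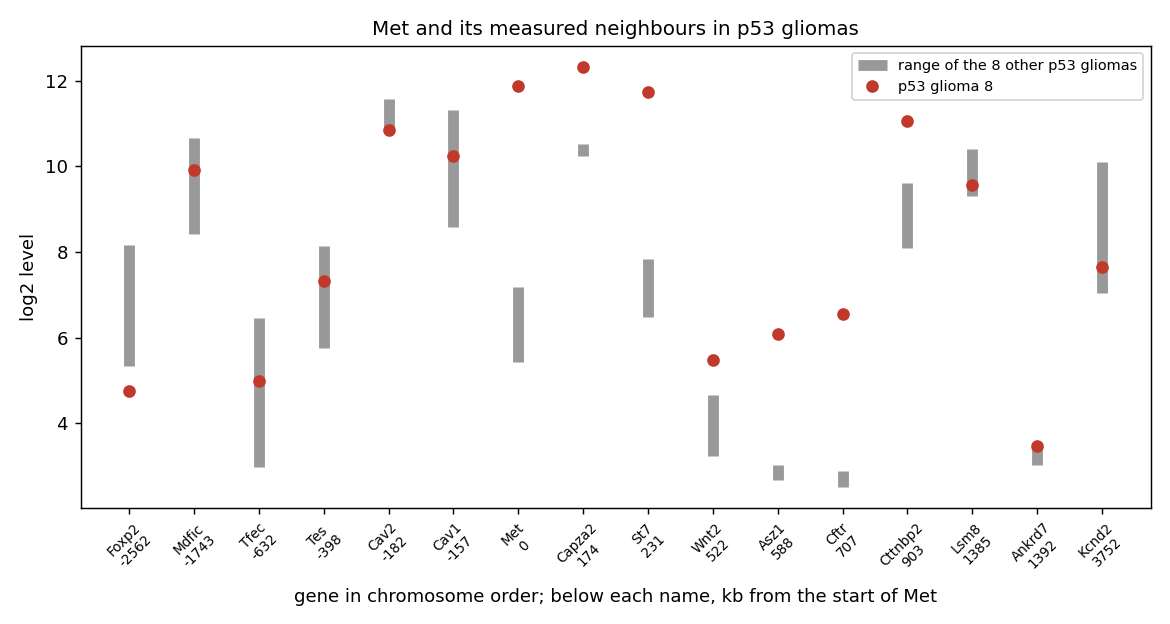
Log2 level of Met and its measured protein-coding neighbours in p53 glioma 8 (red points) and the range of the other 8 p53 gliomas (grey bars), in chromosome order with the distance of each gene's start from that of Met in kb. From Met to Cttnbp2 the red points lie above the grey bars (Met 11.88 against 5.44 to 7.19), and the genes on both sides do not.

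Neighbours of Axl, Kit and Hgf were read in the same way, and those of Tyro3 and Mertk were not. The median excess of the 10 neighbours reached at most 0.24 for Axl, 0.54 for Kit, in p53 glioma 6, and 0.71 for Hgf, in p53 glioma 1, where 6 of the 10 neighbours of Hgf were highest among the p53 gliomas, against 5 of 10 for Met in p53 glioma 8. However, p53 glioma 1 showed 13.4% of the mean change of the other p53 gliomas over all probe sets. It also had the highest mature neuron list level of that group, 10.68. The part of this in the levels of the Hgf neighbours was not tested. Pdgfra, which encodes a receptor of the same class as KIT and lies next to Kit in the measured order, rose in all 3 models, by 2.90 ± 0.55 in cis p53/Nf1 gliomas (limma adjusted p = 8.94e-05), 2.29 ± 0.49 (0.000829) in the p53 model and 1.89 ± 0.58 (0.0408) in the p53 Nf1KO model, while Kit fell or did not pass. In p53 glioma 6, the highest p53 glioma for both genes, Pdgfra read 10.76 and Kit 6.26, the latter within the range of Z2 forebrain.

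Hgf, the MET ligand, was near the low end of the arrays in every group. Its probe set lay below the 25th percentile of its array on 31 of 32 arrays, where differences are compressed. It read 6.26, 6.69 and 6.29 in Z1 forebrain and from 6.01 through 6.13 to 6.26 in cis p53/Nf1 gliomas, without overlap before rounding but by a small margin (-0.29 ± 0.20; limma adjusted p = 0.258). In set Z2 it read 4.05, 4.11, 3.55 and 4.08 in forebrain, from 3.48 through 3.66 to 4.34 in p53 gliomas, 4.55, 4.24, 3.29 and 3.17 in the 4 gliomas of the p53 Nf1KO model and 3.68, 3.33 and 3.58 in cerebellum. No Hgf difference was called (adjusted p = 0.363 and 0.710 for the p53 and p53 Nf1KO gliomas).

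Counting arrays without overlap gives a view that does not rest on the fit. In cis p53/Nf1 gliomas 2 of 9 genes, Axl and Pros1, lay above forebrain in every array and 2, Tyro3 and Hgf, below it, where 17.9% and 17.7% of all probe sets did so. In p53 gliomas 1 of 9, Axl, lay above without overlap, against 5.15% of probe sets, and none below, against 4.47%. In p53 Nf1KO gliomas 2 of 9, Axl and Pros1, lay above, against 9.97%, and none below, against 10.5%. In cerebellum Axl and Gas6 lay above forebrain without overlap, against 12.5% of probe sets, and Met below it, against 9.7%.

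The glioma models were also set against each other. Between p53 Nf1KO and p53 gliomas 0 of the 9 genes were called by limma, 0 had an unadjusted p under 0.05, and 0.142% of all probe sets were called. The differences ran from -0.62 ± 0.72 for Met (95% interval -2.08 to 0.85), which was -0.0074 without p53 glioma 8, to 0.56 ± 0.48 for Kitl (-0.42 to 1.54). The cis p53/Nf1 change from forebrain was compared with that of the other models as a difference of differences, which removes an additive shift between the sets but not a difference of scale. None of the 9 genes was called against the p53 change (1.87% of probe sets called) or the p53 Nf1KO change (4.1%). Tyro3 was the only gene of the 9 with an unadjusted p under 0.05, with a fall larger in cis p53/Nf1 gliomas by 1.25 ± 0.58 than in p53 gliomas (adjusted p = 0.289) and by 1.46 ± 0.63 than in p53 Nf1KO gliomas (adjusted p = 0.188). The fall of Tyro3 and Mertk in cis p53/Nf1 gliomas and of Kit and Kitl in p53 gliomas is therefore not shown to be particular to a model.

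Cerebellum and forebrain differed for none of the 9 genes (limma; 5.09% of probe sets called), with 2 of 9, Kit and Gas6, at an unadjusted p under 0.05. Kit was higher in cerebellum by 1.18 ± 0.39 (2.27-fold; adjusted p = 0.0765), and by 1.77 without cerebellum 2 (adjusted p = 0.00264). Cerebellum 2 also had the lowest level of the cerebellum marker list among the 3 cerebella, 9.91 against 11.71 and 11.74, while Z2 forebrain read 7.21 to 7.94. Gas6 was 0.71 ± 0.32 higher (adjusted p = 0.241). Met was 1.85 ± 0.91 lower (3.61-fold; adjusted p = 0.304), with cerebella 1 and 4 below the 25th percentile of their arrays, and with p53 glioma 8 left out of the shared fit the same difference had an adjusted p of 0.0430, a setting chosen after the Met values were seen.

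Seen glioma by glioma, the rises of Axl and Pros1 and several of the falls were widespread. Axl lay above the forebrain mean of its set in 22 of 22 gliomas and at least 2-fold above it in 6 of 9 cis p53/Nf1, 7 of 9 p53 and 1 of 4 p53 Nf1KO gliomas. Pros1 lay above in 22 of 22 and at least 2-fold above in 8, 8 and 3 gliomas of the models in the same order. Tyro3 lay at least 2-fold below in 8, 5 and 2 gliomas, Kitl in 7, 6 and 3, Mertk in 7, 1 and 1, Gas6 in 2, 4 and 1, and Kit in 0, 3 and 1. By any amount, Tyro3 lay below the forebrain mean in 9, 8 and 4 gliomas and Gas6 in 8, 9 and 4. Kitl did so in 8, 8 and 3 and Mertk in 8, 7 and 3. Kit lay on both sides of that mean in cis p53/Nf1 and p53 Nf1KO gliomas and below it in 9 of 9 p53 gliomas. Met lay at least 2-fold above in 1, 2 and 1 gliomas.

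**Figure D4:**
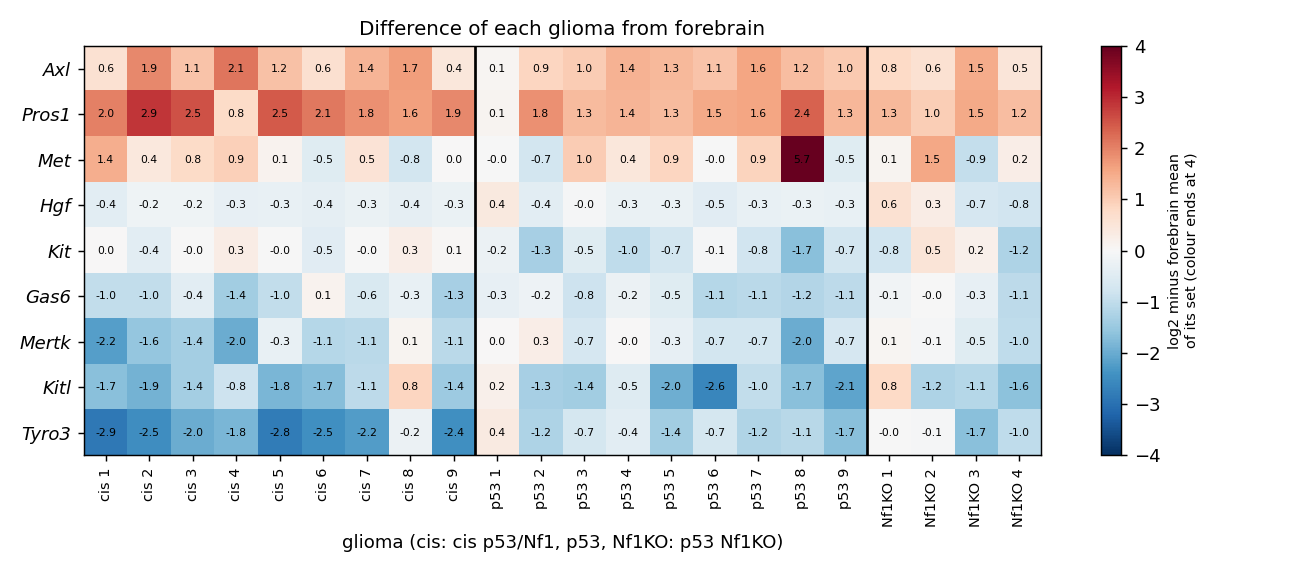
Log2 level of each gene in each of the 22 gliomas minus the forebrain mean of its set (red higher, blue lower, with the value printed in each cell); black lines part the models. Axl and Pros1 are above forebrain in all 22 gliomas, Met in p53 glioma 8 is 5.7 above, and cis p53/Nf1 glioma 8 lacks the low Tyro3 and Kitl of the other cis p53/Nf1 gliomas. Its Mertk (0.1) is the highest of that model, followed by cis p53/Nf1 glioma 5 (-0.3).

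Single gliomas set several of these counts. cis p53/Nf1 glioma 8 had the highest Tyro3 (10.42), Kitl (9.66) and Mertk (10.23) of its group and an Axl of 11.04, among the 3 highest. It also had the lowest Pdgfra of its group, 9.75, where the others read 12.29 to 13.66 and Z1 forebrain averaged 9.78, the lowest oligodendrocyte progenitor list level (10.40) and the highest astrocyte list level (11). Over all probe sets it showed 87.2% of the mean change of the other cis p53/Nf1 gliomas. p53 glioma 1, with 13.4%, read close to forebrain for Axl, Pros1, Tyro3 and Kitl. p53 glioma 8, with the high Met, had the lowest Mertk (7.40), Kit (4.66) and Gas6 (8.24) and the highest Pros1 (12.22) of the p53 gliomas.

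Across the 22 gliomas, each taken as its deviation from its model's mean, Tyro3 and Kitl had the highest correlation of any pair of the 9 genes (Pearson r = 0.78). Without cis p53/Nf1 glioma 8 it was 0.67, and Hgf and Tyro3 ranked above it (0.71, against 0.53 over all 22). Mertk and Gas6 followed with r = 0.62. Met and Mertk ran opposite (r = -0.66, and -0.49 without p53 glioma 8). Axl correlated with the interferon response list at r = 0.57, or 0.42 without p53 glioma 1, and with the microglia and macrophage list at r = -0.03, or -0.26 without that glioma. Mertk correlated with the microglia and macrophage list at r = 0.55, the astrocyte list at 0.63 and the mature neuron list at 0.48. Tyro3 and Kitl correlated with the oligodendrocyte progenitor list at r = -0.68 and -0.66, with the astrocyte list at 0.60 and 0.55 and with the mature neuron list at 0.49 each. Without p53 glioma 1 these values were -0.60 and -0.57, 0.58 and 0.53, and 0.39 and 0.40. They were not computed without cis p53/Nf1 glioma 8, which had the lowest progenitor and highest astrocyte list level of its group. How far they rest on that glioma is therefore not known. All these correlations are descriptions, since the gliomas share array handling and differ in tumour and normal cell content.

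The genes with levels most like those of each receptor over the same 22 deviations were taken as the 5 with the highest Pearson r. For Axl these were Anxa5 (0.79), Nop14 (0.78), Cd44 (0.78), Calu (0.75) and Parp10 (0.74), at 0.67 to 0.79 without p53 glioma 1, the glioma farthest from its group. For Kit they were Aqp11 (0.83), St18 (0.81), Trpm6 (0.78), Hsd11b1 (0.77) and Pnma1 (0.75), at 0.71 to 0.85 without p53 Nf1KO glioma 4. For Met they were Tmprss13 (0.88), Bik (0.87), Cphx1 (0.86), Cftr (0.85) and Asz1 (0.84), and without p53 glioma 8 these fell to 0.56, 0.53, 0.51, 0.35 and 0.33, so that the likeness to Met rested in large part on that glioma.

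The genes around each receptor were followed as lists, in which rose and fell mean called differences. Over all probe sets, 21.8%, 17.5% and 5.18% were called higher in cis p53/Nf1, p53 and p53 Nf1KO gliomas. The shares called lower were 20.1%, 20.6% and 3.2%. Of 10 genes that activate HGF or inhibit its activators, 1 rose and 2 fell in cis p53/Nf1 gliomas, 3 rose and 2 fell in p53 gliomas, and 1 rose in p53 Nf1KO gliomas. Plat, the tissue plasminogen activator, rose in all 3 models, by 1.43 ± 0.38 (limma adjusted p = 0.00325), 1.52 ± 0.35 (0.00137) and 1.38 ± 0.41 (0.0335). Spint2, an inhibitor of HGF activation, fell by 1.52 ± 0.58 in cis p53/Nf1 gliomas (adjusted p = 0.0368) and by 1.61 ± 0.53 in p53 gliomas (0.0170), and F12, a coagulation protease, fell by 0.37 ± 0.15 (0.0421) and 0.51 ± 0.13 (0.00356). The proteases St14 and Plau rose in p53 gliomas by 0.67 ± 0.24 (0.0271) and 0.63 ± 0.19 (0.0110). F12 averaged 6.40 in cis p53/Nf1 gliomas against 6.76 in Z1 forebrain, and 3.94 in p53 gliomas against 4.45 in Z2 forebrain. Plau averaged 4.17 in p53 gliomas against 3.55 in Z2 forebrain, and St14 4.85 against 4.18. These means, except that of St14 in p53 gliomas, lay near the low end of the arrays, where differences are compressed. The sizes of the F12, Plau and St14 differences are therefore not exact. The list's median log2 difference was -0.04, 0.03 and -0.01 in the 3 models.

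Of 14 measured MET partners, adaptors and regulators, 3 rose and 1 fell in cis p53/Nf1 gliomas, 2 rose and 2 fell in p53 gliomas, and none was called in p53 Nf1KO gliomas. Cd44, a co-receptor of MET, rose by 2.90 ± 0.62 in cis p53/Nf1 (limma adjusted p = 0.000379) and 3.18 ± 0.56 in p53 gliomas (0.000124). In Z1 forebrain Cd44 averaged 6.73, below the 25th percentile of those arrays (6.87 to 7.01), where differences are compressed. Gab1, the docking protein that MET phosphorylates, rose by 2.22 ± 0.35 (1.26e-05) and 1.37 ± 0.32 (0.00172), and the phosphatase gene Ptpn1 by 0.84 ± 0.21 in cis p53/Nf1 gliomas (0.00155). The integrin gene Itgb4 fell by 1.15 ± 0.35 (0.00920) and 1.09 ± 0.32 (0.00817), and Mst1r, which encodes RON, the relative of MET, fell by 1.62 ± 0.31 in p53 gliomas (0.000274). Itgb4 and Mst1r each averaged 4.61 in p53 gliomas, close to the 25th percentile of those arrays (4.37 to 4.57). The list's median was 0.01, 0.23 and 0.04.

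Of 18 genes of TAM signalling and uptake of dead cells, 8 rose and 3 fell in cis p53/Nf1 gliomas, 6 rose and 1 fell in p53 gliomas, and 3 rose in p53 Nf1KO gliomas. Lgals3, which encodes galectin-3, reported as a MERTK ligand, rose by 4.56 ± 0.63 (limma adjusted p = 1.87e-06), 4.17 ± 0.57 (7.54e-06) and 3.21 ± 0.67 (0.00403) in the 3 models. Its mean in Z1 forebrain, 6.82, lay below the 25th percentile of those arrays (6.87 to 7.01), where differences are compressed. Socs3, an inhibitor of cytokine signalling, rose by 2.75 ± 0.55 (0.000173), 3.28 ± 0.49 (2.35e-05) and 2.64 ± 0.58 (0.00608), and the lipid exporter gene Abca1 by 2.66 ± 0.36 (1.24e-06), 1.69 ± 0.32 (0.000295) and 1.29 ± 0.38 (0.0325). In cis p53/Nf1 gliomas the engulfment gene Elmo1 fell by 1.36 ± 0.29 (0.000413), Adgrb1, which encodes the phosphatidylserine receptor BAI1, by 1.22 ± 0.26 (0.000393) and Mfge8, a bridging protein between dead cells and integrins, by 0.91 ± 0.24 (0.00285). Elmo1 also fell in p53 gliomas, by 0.70 ± 0.26 (0.0370). Microglia and macrophage markers (10, 14 and 6 of 24) and interferon response genes (14, 15 and 14 of 15) rose in the same models, and their part in this list was not tested. The list's median was 0.61, 0.33 and 0.36.

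Of 15 genes of KIT signalling, 9, 7 and 4 rose in the cis p53/Nf1, p53 and p53 Nf1KO models, where 21.8%, 17.5% and 5.18% of all probe sets did. None fell, and Kit itself did not rise in any model. The kinase gene Lyn rose by 1.70 ± 0.30 (limma adjusted p = 4.05e-05), 1.60 ± 0.27 (7.97e-05) and 1.3 ± 0.32 (0.0121). Dok1, which encodes a docking protein, rose by 1.52 ± 0.24 (9.55e-06) in cis p53/Nf1 and 1.54 ± 0.21 (1.05e-05) in p53 gliomas, Fyn by 1.65 ± 0.26 (1.11e-05) in cis p53/Nf1 gliomas, and Ptpn6, the gene of the phosphatase SHP-1, by 1.69 ± 0.29 (0.000115) in p53 and 1.23 ± 0.35 (0.0266) in p53 Nf1KO gliomas. The adaptor gene Sh2b3 rose by 0.81 ± 0.26 in p53 Nf1KO gliomas (0.0459). Lyn and Ptpn6 are also known from blood and microglial cells, whose markers rose in the same gliomas, as given above, and their part was not tested. The list's median was 0.69, 0.68 and 0.21.

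Of 7 receptors of the same class as KIT and their ligands, 2 rose and 1 fell in cis p53/Nf1 gliomas, 2 rose and 2 fell in p53 gliomas, and 1 rose and 1 fell in p53 Nf1KO gliomas. Beside Pdgfra, Csf1, a ligand of the macrophage receptor CSF1R, rose by 0.65 ± 0.20 (limma adjusted p = 0.0112) in cis p53/Nf1 and 0.96 ± 0.18 (0.000299) in p53 gliomas. Il34, the other CSF1R ligand and one made by neurons, fell by 2.21 ± 0.33 (5.36e-06) and 0.97 ± 0.30 (0.0117). The receptor gene Flt3 fell by 1.49 ± 0.28 in p53 gliomas (0.000293) and by 1.06 ± 0.33 in p53 Nf1KO gliomas (0.0459). Flt3 averaged 4.31 in p53 gliomas, below the 25th percentile of those arrays (4.37 to 4.57), where differences are compressed. The size of its fall there is therefore not exact.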

How the data were processed

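Total RNA of mouse glioma and normal brain was labelled with biotin and hybridised to Affymetrix mouse genome arrays, per the labels. What the authors deposited are log2 values, already normalized, of 18328 custom probe sets, in 2 tables whose largest difference was 0. The summary and normalization of probe intensities are not given in the sources used here. Genes were named by the deposited gene identifier in a RefSeq table of GRCm38.p6 (17226 probe sets with 1 gene, 16195 genes), and promoters came from RefSeq of that assembly. A model with a mean for each of the 6 groups was fitted to every probe set on all 32 arrays with lmFit, contrasts and eBayes of limma 3.58.1 in R 4.3.3. Tests were two-sided, with Benjamini-Hochberg adjustment over all probe sets, and the script was tested on simulated data. Tables were handled with Python 3.11.15, pandas 2.3.3 and numpy 2.4.6. No filter on low values was applied. The number of arrays and the spread between them limit the precision. No pair of arrays held identical values.

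The 9 genes were chosen, and the gene lists, tests and naming rule written, with earlier results of these data known. Named were the 9 genes, per list and model up to 3 called genes with the largest difference each way, the 5 genes with the highest correlation with Met, Axl and Kit, and the 5 measured protein-coding neighbours on each side of Met, Hgf, Axl and Kit. Lists covered HGF processing, MET signalling, TAM signalling, KIT signalling, KIT-like receptors and the marker lists named above, with proliferation and brain region. Alternatives changed the arrays in the fit, the normalization, the filter, probe sets per gene, the variance model, a replicate block and single arrays.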

Additional observations from a re-analysis of the deposited data

Results flagged for a closer look

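In each group of 4 or more arrays the highest and lowest value of each of the 9 genes was compared with the nearest other by Dixon's criterion at its 95% critical value, in 36 groups of values, and 8 stood apart, where chance gives about 1 in 20 groups. Met was 11.88 in p53 glioma 8 against 5.44 to 7.19 in the other p53 gliomas, with the run of high neighbours given above. Mertk was 7.4 in the same glioma against 8.67 to 9.66. In cis p53/Nf1 glioma 8, Tyro3 was 10.42 against 7.8 to 8.81 and Kitl 9.66 against 6.92 to 7.98. In p53 glioma 1, Axl was 8.47 against 9.25 to 9.95, Pros1 9.97 against 11.13 to 12.22 and Hgf 4.34 against 3.48 to 3.91, each toward or beyond the forebrain level. Hgf was 3.55 in Z2 forebrain 3 against 4.05 to 4.11 in the other forebrains.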

How the results depend on the processing

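Outside the fits that left out an array, 485 of 497 differences of the 9 genes kept their direction and side of the threshold, and so did 858 of 918 with an array left out. Axl and Pros1 in cis p53/Nf1 and p53 gliomas and Tyro3 in cis p53/Nf1 gliomas were called in every alternative run, leaving out each array included. With only the compared groups in the fit, Hgf (adjusted p = 0.0331) and Kitl (0.0492) were also called in cis p53/Nf1 gliomas, and with quantile normalization over all arrays Kitl was (0.0192). The filter on low values kept 15927 probe sets and 8 of the 9 genes, without Hgf.

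Of 55 same-numbered pairs of arrays in different groups, 10 correlated above 0.1 (range -0.331 to 0.441). Pairs with different numbers were not read, so these values cannot show whether the replicate numbers pair the arrays. With the replicate block 2 of 9 genes were called in p53 gliomas in place of 5, with Gas6 (adjusted p = 0.0907), Kit (0.131) and Kitl (0.0731) no longer called, and Gas6 in cis p53/Nf1 gliomas was not called (0.143).

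Over all probe sets, calls between p53 Nf1KO and p53 gliomas numbered 26, and 6 with only the compared groups, 3 with quantile normalization over all arrays and 5 with the replicate block. For the cis p53/Nf1 change against the p53 change they numbered 343 and 1226 with that quantile normalization. Against the p53 Nf1KO change they numbered 752, and 1649, 2250 and 382 under the 3 settings in the same order. Leaving out 1 array moved these counts to 7 to 479, 94 to 629 and 284 to 1251, and that of p53 Nf1KO gliomas against forebrain from 1535 to 441 to 2686 and of cerebellum from 932 to 282 to 1560. The lowest counts came, in the order given, without p53 Nf1KO glioma 1, Z1 forebrain 2, p53 Nf1KO glioma 2, p53 Nf1KO glioma 4 and cerebellum 4, and the highest without p53 glioma 1, p53 glioma 9, p53 Nf1KO glioma 4, p53 Nf1KO glioma 2 and cerebellum 2. Genes of the 9 called then numbered 3 (without Z1 forebrain 1) to 6 in cis p53/Nf1 gliomas, 3 (without Z2 forebrain 1 or 2) to 6 in p53 gliomas, 0 (without Z2 forebrain 2 or 4 or p53 Nf1KO glioma 1, 3 or 4) to 1 in p53 Nf1KO gliomas, and 0 to 1 (without cerebellum 2, or without p53 glioma 8 in the shared fit) in cerebellum. The cause of these moves was not tested.

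Differences near 0 that were not called changed sign. Tyro3 in cerebellum was 0.051, and -0.0078 with arrays centred on their median and -0.066 with the replicate block. In the cis p53/Nf1 change against the p53 change, Kitl was -0.29 with quantile normalization over all arrays, and Gas6 0.0053 with that normalization within each set and 0.036 with the replicate block. With 1 array left out the ranges were as follows. Against forebrain, Kit in cis p53/Nf1 gliomas ran from -0.23 to 0.13, Met and Hgf in p53 Nf1KO gliomas from -0.19 to 0.64 and -0.38 to 0.075, and Tyro3 in cerebellum from -0.16 to 0.31. Between p53 Nf1KO and p53 gliomas, Hgf ran from -0.17 to 0.29, Tyro3 from -0.017 to 0.53 and Mertk from -0.023 to 0.38. In the cis p53/Nf1 change against the p53 change, Met ran from -0.72 to 0.088, Hgf from -0.16 to 0.060, Gas6 from -0.20 to 0.13 and Kitl from -0.10 to 0.35. Against the p53 Nf1KO change, Met ran from -0.30 to 0.53, Hgf from -0.37 to 0.089, Kit from -0.0069 to 0.58 and Kitl from -0.68 to 0.13.

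The groups of 3 and 4 arrays, the differing scales of the sets and the low Hgf signal limit what these differences can show.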
